A study of Mus musculus with 4 samples.

Results

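The microtubule motors of mouse platelets, clot-forming blood cells that have no nucleus, were described across 4 RNA-seq libraries. The members are the protein-coding genes whose symbols begin with Kif followed by a digit or c, Klc followed by a digit, Dync, Dynl or Dctn, which are the kinesins, their light chains, the cytoplasmic dynein chains and the dynactin subunits. The rule found 60 genes among the 17995 genes of the 2 deposited tables, of which 13896 are protein-coding, and 56 of the 60 were listed in both tables. A further 1 gene that fits the pattern is not analysed here. The rule itself uses no measured value, but the members and lists were chosen with earlier results of these data known. By role, 13 are mitotic kinesins, 17 are kinesin heavy chains classed with cargo transport, 5 are depolymerising, cilium or centriole kinesins and 4 are kinesin light chains. A further 4 are chains of cytoplasmic dynein 1, 2 belong to the dynein 2 of cilia, 8 are dynein light chains and 6 are dynactin subunits. The remaining gene, Kif1bp, encodes a protein that binds kinesins and is no motor itself.

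Each library came from the pooled platelets of 7 male mice, with 1 library per group. The library labelled cKO came from mice of 3 months with a conditional, platelet-specific knockout of HuR, the product of Elavl1, which attaches to AU-rich elements of messenger RNAs. Its counterpart, WT, came from wild-type littermates of 3 months. The Old library came from wild-type mice of 24 months and the Young library from wild-type mice of 3 months. The Cre line behind the knockout and any sorting of the platelets were not stated in the labels. The study asks what platelet HuR does in the ageing of the body.

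Between 17702341 and 18472149 reads per library were recovered from the deposited values. The scaled library sizes used for ratios below differ from these totals: Old over Young was 0.913 scaled, against 1.02 by total reads. Where the reads of 1 gene are close in 2 libraries, their order can therefore differ from the direction of the ratio. Elavl1 had 1481 reads in the library labelled cKO, against 876 in WT, a ratio of 1.66 (95% interval 1.53 to 1.81), and 527 in Old, against 621 in Young. Reads of the gene targeted in the knockout were therefore not lower in that library, for a reason that was not tested. No direction below can be read as an effect of losing HuR. All 15 platelet markers had reads in each library, and they summed to 60033 reads scaled to the library total (RPM) in the library labelled cKO, against 63622 in WT, and to 74558 in Old, against 60551 in Young. Ratios were taken over library sizes scaled by trimmed means (TMM), and each interval covers counting error only, since no group has a second library. A gene is said to pass the size rule when it had 100 reads or more in either library and its whole interval lay 2-fold or further from 1. In bulk RNA, fewer cells of a type and less RNA per cell cannot be told apart.

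Kinesins step along microtubules, most of them towards the plus ends, while cytoplasmic dynein, helped by dynactin, moves towards the minus ends. In megakaryocytes, the bone marrow cells that shed platelets, dynein slides microtubules past one another as proplatelets elongate, and motors carry granules and organelles into them. In resting platelets microtubules are coiled into a marginal band that opposing motors keep in place. Mitotic kinesins build and position the spindle and finish cytokinesis, a division step that megakaryocytes leave out when they become polyploid.

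Across the motors, 31 of the 60 genes reached 100 reads in at least 1 library and 27 did so in every library. Those 31 hold 9 of the 17 transport kinesins, 2 of the 4 kinesin light chains, all 4 dynein 1 chains, 7 of the 8 dynein light chains and all 6 dynactin subunits. They hold only 1 of the 13 mitotic kinesins, Kif14, and only 1 of the 5 depolymerising, cilium or centriole kinesins, Kif2a. Neither dynein 2 chain reached 100 reads. Levels of different genes are compared as RPM per kilobase of gene length (RPKM). By mean RPKM over the 4 libraries, the order was Kif2a at 264, Dynlt3 at 107, Dynlrb1 at 63.9, Dynll2 at 30.5, Klc1 at 22.4, Kif5b at 20.3, Dctn2 at 18.8, Dctn1 at 10.9, Dynlt1b at 10.7 and Dctn3 at 10.5. The first 4 of these held the same places in each library. Lower in the order the places of neighbours crossed: Klc1 lay above Kif5b in the library labelled cKO and in Young and below it in WT and Old.

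**Figure D1:**
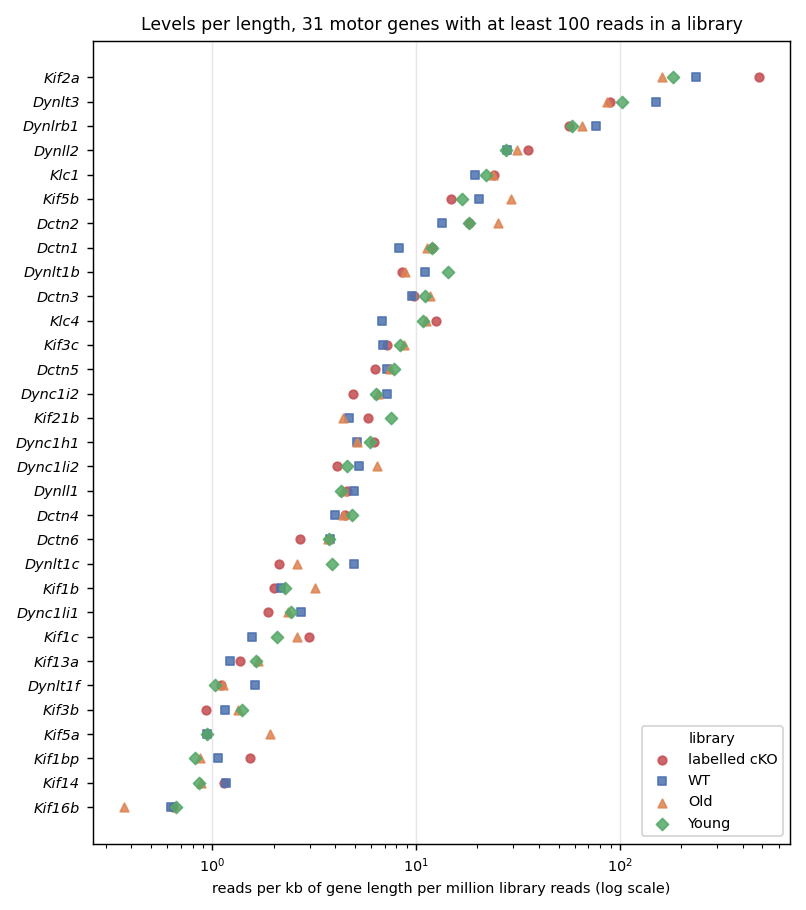
Level per length of the 31 motor genes with at least 100 reads in a library, 1 row per gene and 1 point per library, in RPKM on a log axis. Kif2a is at the top in all 4 libraries, with the point of the library labelled cKO (479 RPKM) apart from the rest, and the points of the other genes lie between 0.370 and 149.9 RPKM.

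No motor gene passed the size rule in either of the study's comparisons. For the library labelled cKO over WT, 0 of 31 genes with at least 100 reads were higher and 0 were lower, beside 2.52% of all genes with that many reads higher and 1.71% lower. For Old over Young, 0 of 29 were higher and 0 were lower, beside 4.26% higher and 4.3% lower. For WT over Young, which are 2 wild-type libraries of the same age, 0 of 30 were higher and 0 were lower, beside 0.439% higher and 0.565% lower. At these shares about 1 gene in each direction or fewer would be called among so few, so a count of 0 is near the background. With a looser rule, under which the interval need only leave out 1, the library labelled cKO over WT had 10 of 31 motors higher and 11 lower, beside 32.7% and 33.3% of all genes. Under it Old over Young had 12 of 29 higher and 5 lower, beside 35.6% and 40.5%, and WT over Young had 11 of 30 higher and 8 lower, beside 30.5% and 30%. Since 2 wild-type libraries of 3 months differed in 19 of 30 motors by that rule, counting error alone does not describe how far such pools lie apart. The comparisons share WT or Young and are not independent of one another.

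**Figure D2:**
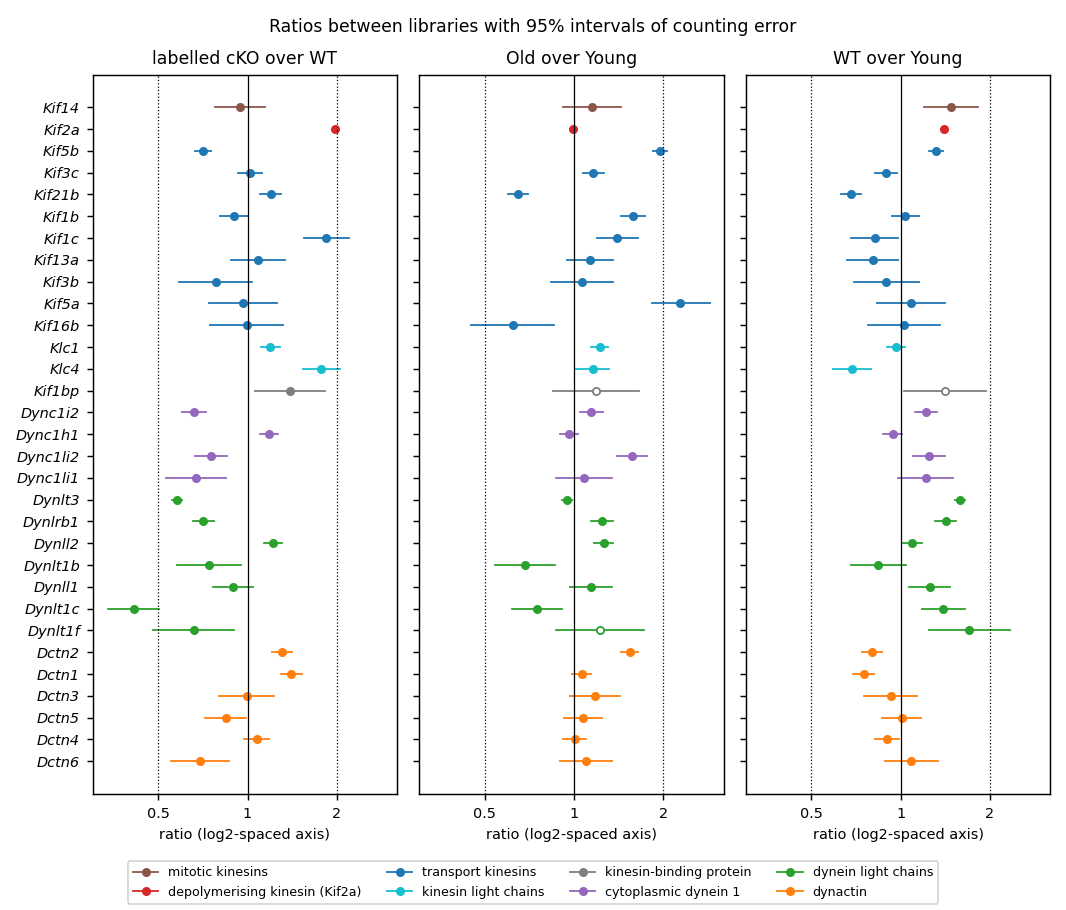
Ratios of reads over scaled library sizes for the 31 motor genes with at least 100 reads in a library, with 95% intervals of counting error, for the library labelled cKO over WT (left), Old over Young (middle) and WT over Young (right), on a log2-spaced axis. Dotted lines mark 2-fold and open points are genes under 100 reads in both libraries of that panel; no interval lies wholly beyond a dotted line.

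Kif2a encodes a kinesin-13, a motor that does not walk but takes tubulin off microtubule ends with the use of ATP. It had 54224 reads in the library labelled cKO, against 27006 in WT, and 19083 in Old, against 21125 in Young. The library labelled cKO was the highest of the 4 and Old the lowest, and the wild-type libraries of 3 months lay in between. In levels this was 479 RPKM in the library labelled cKO, against 235 in WT, and 162 in Old, against 182 in Young. Kif2a ranked 55 among all genes by reads in the library labelled cKO, 110 in WT, 167 in Old and 151 in Young.

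The ratio of Kif2a in the library labelled cKO over WT was 1.97 (1.94 to 2.00), just short of the size rule. Scaling to total reads in place of TMM gave 2.04 and carried it past the rule. Against Young in place of WT, a comparison chosen with the data in view, it was 2.82 (2.77 to 2.86), and Kif2a was then the only 1 of 30 motors past the rule, beside 2.07% of all genes higher and 0.793% lower. The ratio of Kif2a was 1.40 (1.37 to 1.42) for WT over Young, 0.99 (0.97 to 1.01) for Old over Young and 0.71 (0.70 to 0.72) for Old over WT. In Old over WT, also chosen with the data in view, 0 of 30 motors passed the rule as higher and 0 as lower, beside 4.54% and 4.22% of all genes. In the authors' deposited table Kif2a has a log2 fold change of 0.98 for cKO over WT with an adjusted p of 0.184, from a test that is not stated and that compares 2 libraries.

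Markers of red-cell precursors differed between these libraries too. The 15 listed erythroid markers summed to 16204 RPM in the library labelled cKO, against 8340 in WT, and to 11498 in Old, against 21654 in Young. Young, with the highest erythroid sum, had 1164 RPM of Kif2a, and the library labelled cKO, with the second highest, had 3063. Marker by marker, the library labelled cKO over Young had 6 of 13 past the size rule as higher and 0 as lower, though the summed ratio was 0.80. Over WT it had 10 of 13 higher and 1 lower. Among all genes 2.07% were higher and 0.793% lower over Young, and 2.52% and 1.71% over WT. The part of erythroid RNA in the Kif2a reads was not tested. Exons of Kif2a overlap those of Dimt1, on the other strand, over 1229 bases, and Dimt1 had between 24 and 41 reads in all 4 libraries.

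Kif2a held the largest part of the reads that fell on motor genes. All 60 genes summed to 77811 reads in the library labelled cKO, against 53092 in WT, and to 46607 in Old, against 46696 in Young. Kif2a was 69.7% of them in the library labelled cKO, against 50.9% in WT, and 40.9% in Old, against 45.2% in Young. The summed ratio in the library labelled cKO over WT was 1.44 (1.42 to 1.46) with Kif2a and 0.89 (0.87 to 0.90) without it. For Old over Young it was 1.09 (1.08 to 1.11) with Kif2a and 1.18 (1.16 to 1.2) without it. The direction with Kif2a depended on the scaling: by share of library reads the sum was 0.252% in Old, against 0.257% in Young. Without Kif2a the share was 0.149% in Old, against 0.141% in Young. With WT in place of Young as the control of Old, it was 0.88 (0.87 to 0.89) with Kif2a and 1.06 (1.04 to 1.08) without it, so the direction of the sum with Kif2a turned with the control.

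**Figure D3:**
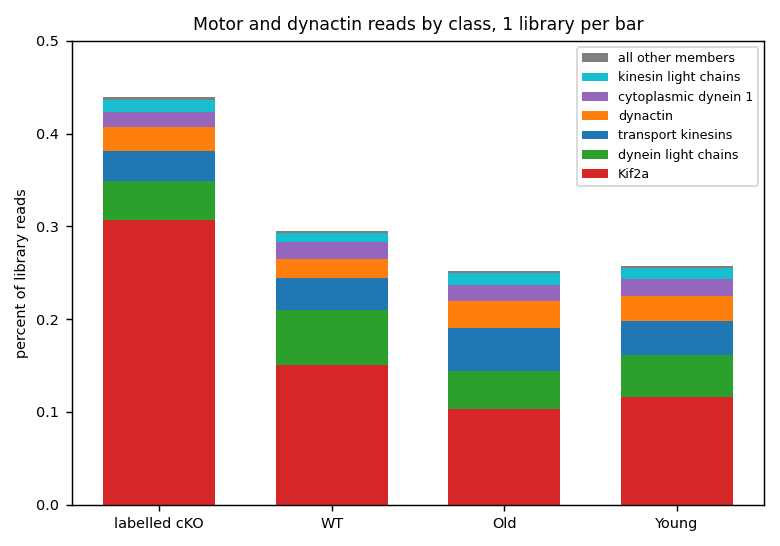
Reads on motor and dynactin genes as a percentage of all reads in each of the 4 libraries, stacked by class, with Kif2a drawn by itself at the bottom. The bar of the library labelled cKO is the tallest (0.440%) and holds the tallest Kif2a segment (0.306%), and the segments above Kif2a sum to between 0.133% and 0.149% in every library.

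HuR is known to bind AU-rich elements in 3′ untranslated regions, so the letters ATTTA were counted, on the transcript's strand and with overlaps, in the longest annotated 3′ untranslated region of each motor gene. That of Kif2a is 3143 bases long and holds 11, which is 3.50 per kilobase; by number it lies at percentile 95.3 of 13772 protein-coding genes and by density at percentile 85.8. Dynlt3 holds 8 in 1720 bases, Kif5b 12 in 2724 bases and Kif16b 11 in 2284 bases. The median is 2 over all listed protein-coding genes (1.28 per kilobase) and 1 over the 60 motors (1.44 per kilobase). The stretches below are shown because they hold nearby or overlapping copies in the 2 most abundant motors, with the matches in capitals, read 5′ to 3′ from GENCODE transcripts. A match of letters is a description and no site.
Kif2a: ttaataaatgaaATTTAtgaaacgaATTTA
Dynlt3: gggcttatgaaatatagttcaATTTATTTA

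Among motors with at least 100 reads, the 2 largest ratios of Old over Young belonged to heavy chains of kinesin-1. Kinesin-1 is built of Kif5 heavy chains and Klc light chains and carries granules, mitochondria and messenger RNPs outwards. Kif5b, its widespread heavy chain, had 1942 reads in the library labelled cKO, against 2698 in WT, and 3986 in Old, against 2242 in Young. Old was the highest of the 4 libraries and the library labelled cKO the lowest. The ratio of Old over Young was 1.95 (1.85 to 2.05), that of the library labelled cKO over WT 0.71 (0.67 to 0.75) and that of WT over Young 1.31 (1.24 to 1.39).

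Kif5a, the heavy chain best known from neurons, had 116 reads in the library labelled cKO, against 118 in WT, and 248 in Old, against 119 in Young. The libraries of 3 months agree within sampling noise and Old lies above them. The ratio was 2.28 (1.83 to 2.86) for Old over Young and 2.11 (1.68 to 2.64) for Old over WT, and its bounds fall short of 2-fold in both. Kif5c, the remaining heavy chain, had 2 reads in the library labelled cKO, against 1 in WT, and 21 in Old, against 3 in Young. Summed over the 3 heavy chains, Old over Young was 1.97 (1.87 to 2.07) and Old over WT 1.51 (1.44 to 1.59), while WT over Young was 1.30 (1.23 to 1.38). Kif5b was between 93.7% and 95.8% of these reads in every library.

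A bound of 1.5-fold in place of 2-fold was passed in Old over Young by 2 of 29 motors, Kif5a and Kif5b, beside 10.4% of all genes higher, and by none lower, beside 12.9%. The Old library also differed in its markers of other blood cells. The 11 listed neutrophil markers summed to 774 RPM in Old, against 25.4 in Young, and Camp, Ltf and Mpo, at 0 in Young, were not listed for the library labelled cKO and WT. The 10 B cell markers summed to 81.2 RPM in Old, against 296 in Young. The part of other blood cells in the Kif5 reads was not tested.

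Kinesin light chains, which hold cargo, differed less between Old and Young than the heavy chains did. Klc1 had 1738 reads in the library labelled cKO, against 1429 in WT, and 1800 in Old, against 1617 in Young, with a spread of 1.24-fold in RPM over the 4 libraries. Its ratio was 1.22 (1.14 to 1.30) for Old over Young, below the 1.95 of Kif5b. The level of Klc1 per length was 1.63 times that of Kif5b in the library labelled cKO, against 0.962 times in WT, and 0.820 times in Old, against 1.31 times in Young. Klc4 had 527 reads in the library labelled cKO, against 292 in WT, and 491 in Old, against 465 in Young. WT was the low library for Klc4: the ratio was 1.77 (1.53 to 2.05) for the library labelled cKO over WT, 0.69 (0.59 to 0.80) for WT over Young and 1.16 (1.02 to 1.32) for Old over Young. Klc2 had between 27 and 43 reads, and Klc3 was listed only for Old and Young, with 13 and 6 reads.

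**Figure D4:**
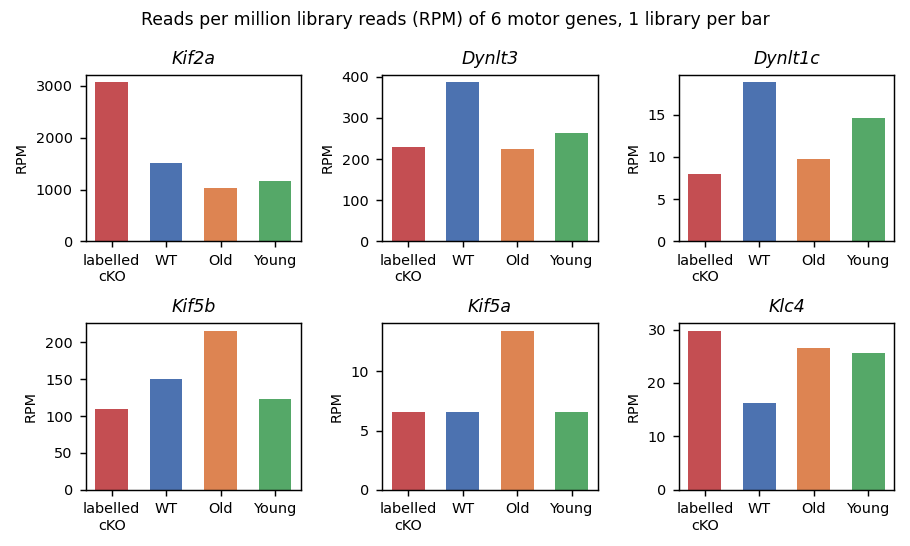
RPM of Kif2a, Dynlt3, Dynlt1c, Kif5b, Kif5a and Klc4, 1 bar per library, with each vertical axis starting at 0. The library labelled cKO is apart from the rest for Kif2a, WT for Dynlt3 and Klc4, and Old for Kif5b and Kif5a.

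The kinesin-3 motors Kif1b and Kif1c move vesicles. Kif1b had 627 reads in the library labelled cKO, against 685 in WT, and 1043 in Old, against 723 in Young, and its ratio was 1.58 (1.44 to 1.74) for Old over Young. Kif1c had 382 reads in the library labelled cKO, against 204 in WT, and 349 in Old, against 273 in Young. For Kif1c WT was the lowest library, with a ratio of 1.84 (1.55 to 2.19) for the library labelled cKO over WT and 1.53 (1.31 to 1.80) against Young. Together with Kif2a and Klc4, Kif1c made 3 of 31 motors higher past a 1.5-fold bound in the library labelled cKO over WT, beside 7.24% of all genes.

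Kif21b, a motor that also slows microtubule growth, had 1257 reads in the library labelled cKO, against 1032 in WT, and 981 in Old, against 1662 in Young. Young was its highest library, and the direction for the library labelled cKO depended on the control, with a ratio of 1.2 (1.10 to 1.30) over WT and 0.83 (0.77 to 0.89) over Young. Old over Young was 0.65 (0.60 to 0.70), beside 0.68 (0.63 to 0.73) for WT over Young, and Old over WT was 0.95 (0.87 to 1.04). The endosomal motor Kif16b had 103 reads in the library labelled cKO, against 102 in WT, and 62 in Old, against 109 in Young. Its ratio was 0.62 (0.45 to 0.86) for Old over Young. Kif13a, which moves endosomes and mannose 6-phosphate receptors, ranged from 178 to 250 reads. Kif13b, Kif26a, Kif1a, Kif17, Kif21a, Kifc2 and Kif3a stayed under 100 reads in every library. Kif1bp had 133 reads in the library labelled cKO, against 94 in WT, and 79 in Old, against 73 in Young. The cilium and centriole kinesins Kif24, Kif9 and Kif7 had at most 37, 20 and 8 reads.

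Kinesin-2 is a trimer of 2 Kif3 heavy chains and the adaptor Kifap3, in which Kif3a pairs with Kif3b or Kif3c. Kif3c had 948 reads in the library labelled cKO, against 916 in WT, and 1189 in Old, against 1121 in Young. Its partner Kif3a had 18 reads in the library labelled cKO, against 30 in WT, and 11 in Old, against 21 in Young. Kif3b ranged from 93 to 143 reads. Kif3c thus made up between 80.9% and 85.6% of the kinesin-2 heavy chain level per length in the 4 libraries. Exons of Kif3c overlap those of the antisense gene 1110002L01Rik over 2617 bases, and that gene had between 9 and 22 reads.

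Cytoplasmic dynein 1 summed to similar reads in all 4 libraries. Its 4 chains summed to 3011 reads in the library labelled cKO, against 3267 in WT, and to 3358 in Old, against 3307 in Young. The summed ratio was 0.91 (0.86 to 0.95) for the library labelled cKO over WT and 1.11 (1.06 to 1.17) for Old over Young. By share of library reads, dynein 1 was 0.0182% in both Old and Young, so the 1.11 depended on the TMM scaling. The heavy chain Dync1h1, which holds the motor domain, had 1730 reads in the library labelled cKO, against 1443 in WT, and 1477 in Old, against 1680 in Young. The intermediate chain Dync1i2, which binds dynactin, had 716 reads in the library labelled cKO, against 1066 in WT, and 999 in Old, against 958 in Young. The library labelled cKO was the highest of the 4 for the heavy chain and the lowest for the intermediate chain. The ratio in the library labelled cKO over WT was 1.18 (1.10 to 1.26) for Dync1h1 and 0.66 (0.60 to 0.73) for Dync1i2.

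The light intermediate chains, which hold cargo adaptors, had intervals below 1 in the library labelled cKO over WT. Dync1li1 had 129 reads in the library labelled cKO, against 189 in WT, and 168 in Old, against 170 in Young. Dync1li2 had 436 reads in the library labelled cKO, against 569 in WT, and 714 in Old, against 499 in Young, with a ratio of 1.57 (1.40 to 1.76) for Old over Young. Against Young in place of WT, the ratios of the library labelled cKO were 0.83 (0.66 to 1.05) for Dync1li1 and 0.96 (0.84 to 1.09) for Dync1li2, whose intervals hold 1. The dynein 2 chain Dync2h1, part of the motor of cilia, had between 16 and 47 reads, and Dync2li1 at most 5.

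Dynein light chains link the motor to cargo and also bind many other proteins. Dynlt3, a light chain of the Tctex type, was the second most abundant motor gene, with 4078 reads in the library labelled cKO, against 6943 in WT, and 4127 in Old, against 4780 in Young. WT stood apart from the rest. The ratio was 0.58 (0.56 to 0.60) for the library labelled cKO over WT and 1.59 (1.53 to 1.65) for WT over Young. Without WT the differences were small, 0.94 (0.90 to 0.98) for the library labelled cKO over Young and 0.95 (0.91 to 0.99) for Old over Young. Dynlt3 was the only 1 of 30 motors past a 1.5-fold bound in WT over Young, beside 2.59% of all genes higher, and none was lower, beside 2.73%.

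Dynlrb1, a light chain of the roadblock type, had 1000 reads in the library labelled cKO, against 1386 in WT, and 1211 in Old, against 1067 in Young. Here too WT was the highest library, and the ratio of the library labelled cKO was 0.71 (0.65 to 0.77) over WT and 1.03 (0.94 to 1.12) over Young. Of the LC8 type, Dynll2 had 1705 reads in the library labelled cKO, against 1373 in WT, and 1577 in Old, against 1372 in Young. Dynll1 had 314 reads in the library labelled cKO, against 346 in WT, and 314 in Old, against 302 in Young. Dynll1 had the smallest spread of the 31 genes, 1.16-fold in RPM, and the level of Dynll2 per length was between 5.64 and 7.72 times that of Dynll1.

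The Dynlt1 genes are near-identical copies on chromosome 17, so their reads were also summed. Over 342 coding bases Dynlt1a, Dynlt1c, Dynlt1f and the processed pseudogene Dynlt1-ps1 on chromosome 6 are identical, and Dynlt1b differs at 1 base, written C21A from Dynlt1c to Dynlt1b with positions counted from the first base of the start codon. Every window of 50 coding bases in Dynlt1c recurs in another copy, as do 92.8% of those in Dynlt1b, and the sources used here do not say how reads shared by several genes were counted. The first 60 coding bases, from GENCODE transcripts are shown with the differing base in capitals. The deposited gene lengths are 4267 bases for Dynlt1a, 771 for Dynlt1b, 3777 for Dynlt1c and 3627 for Dynlt1f, and the untranslated parts, which could tell reads apart, were not compared.
Dynlt1a: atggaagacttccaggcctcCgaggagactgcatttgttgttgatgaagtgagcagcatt
Dynlt1b: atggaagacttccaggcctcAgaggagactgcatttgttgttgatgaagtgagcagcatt
Dynlt1c: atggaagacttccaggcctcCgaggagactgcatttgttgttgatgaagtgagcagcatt

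Of the copies, Dynlt1a had between 18 and 59 reads and Dynlt1f between 68 and 106. Dynlt1b had 116 reads in the library labelled cKO, against 154 in WT, and 125 in Old, against 200 in Young, and Young was its highest library. Its ratio was 0.74 (0.58 to 0.95) for the library labelled cKO over WT and 0.68 (0.54 to 0.86) for Old over Young. Dynlt1c had 142 reads in the library labelled cKO, against 338 in WT, and 181 in Old, against 265 in Young. Its ratio in the library labelled cKO over WT was 0.41 (0.34 to 0.50), just short of the size rule. With Dynlt3, Dynlt1c made 2 of 31 motors lower past a 1.5-fold bound, beside 6.28% of all genes. The pseudogene Dynlt1-ps1 had 308 reads in the library labelled cKO, against 768 in WT, and 443 in Old, against 569 in Young. The 4 coding copies summed to 347 reads in the library labelled cKO, against 657 in WT, a ratio of 0.52 (0.45 to 0.59). With the pseudogene added the ratio was 0.452 (0.411 to 0.496), an interval that lies wholly beyond 2-fold, though this sum was chosen with the data in view. The sum with the pseudogene gave 1.39 (1.28 to 1.5) for WT over Young and 0.64 (0.58 to 0.71) for the library labelled cKO over Young.

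Dynactin ties dynein to cargo and keeps it moving, and its 6 members summed to 4451 reads in the library labelled cKO, against 3678 in WT, a ratio of 1.19 (1.14 to 1.24). In Old they summed to 5315 reads, against 4789 in Young. The ratio of Old over Young was 1.22 (1.17 to 1.26) and that of WT over Young 0.84 (0.80 to 0.88). Dctn1, the p150Glued subunit that grips the microtubule, had 1379 reads in the library labelled cKO, against 965 in WT, and 1364 in Old, against 1407 in Young. WT was low for Dctn1 and the rest lay close together, with ratios of 1.40 (1.29 to 1.53) for the library labelled cKO over WT, 0.75 (0.69 to 0.81) for WT over Young and 1.06 (0.98 to 1.14) for Old over Young.

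Dctn2, or dynamitin, had 1546 reads in the library labelled cKO, against 1161 in WT, and 2229 in Old, against 1585 in Young. Old was its highest library, at 1.54 (1.44 to 1.64) over Young and 1.92 (1.79 to 2.07) over WT. Dctn3 had 180 reads in the library labelled cKO, against 178 in WT, and 225 in Old, against 210 in Young. The pointed-end subunits Dctn4, Dctn5 and Dctn6 ranged from 837 to 1020, from 296 to 373 and from 136 to 194 reads. Under TMM scaling, ratios of Old over Young were above 1 for all 6 dynactin genes, beside 3062 of 6519 genes with at least 100 reads. The interval left out 1 for Dctn2 alone. This direction depended on the scaling: by RPM, Dctn1, Dctn4, Dctn5 and Dctn6 were lower in Old than in Young.

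The mitotic kinesins were scarce in every library. All 13 summed to 308 reads in the library labelled cKO, against 329 in WT, and to 320 in Old, against 288 in Young, and Kif14 was between 52.8% and 68.2% of them. The summed ratio was 0.92 (0.78 to 1.08) for the library labelled cKO over WT, 1.22 (1.03 to 1.43) for Old over Young and 1.25 (1.06 to 1.47) for WT over Young. Their summed level was between 2.14 and 2.48 RPKM, against between 38.0 and 54.8 RPKM for the transport kinesins. Kif14, which acts at the midbody late in cytokinesis, had 210 reads in the library labelled cKO, against 218 in WT, and 169 in Old, against 161 in Young. The 2 libraries of the first pair lay above those of the second pair, with 1.48 (1.2 to 1.83) for WT over Young and 0.95 (0.78 to 1.15) for the library labelled cKO over WT.

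Apart from Kif14, no mitotic kinesin exceeded 34 reads, so single ratios rest on few reads. Kif15, Kif18a, Kif18b and Kif22 had at most 16. Kif20b, a cytokinesis motor, had 12 reads in the library labelled cKO, against 34 in WT, and 27 in Old, against 26 in Young. Kif23, the motor of centralspindlin, had 14 reads in the library labelled cKO, against 15 in WT, and 23 in Old, against 34 in Young. Kifc1, which focuses spindle poles, had 15 reads in the library labelled cKO, against 16 in WT, and 8 in Old, against 27 in Young. Its close relative Kifc5b, with which it may share reads, had at most 5. Kif4, a motor of chromosomes and of the central spindle, had 11 reads in the library labelled cKO, against 8 in WT, and 29 in Old, against 3 in Young. Kif20a, also of the central spindle, had 12 reads in the library labelled cKO, against 3 in WT, and 25 in Old, against 5 in Young.

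The ratio of Old over Young was 10.6 (3.28 to 54.3) for Kif4 and 5.47 (2.06 to 18.3) for Kif20a, both under the 100 reads that the size rule asks for. With a minimum of 20 reads, 3 of 45 motors were higher past 2-fold in Old over Young, beside 5.53% of all genes, and 1 was lower, beside 5.44%. With no minimum 4 of 58 were higher, beside 5.49%, and 1 was lower, beside 5.25%, and in the library labelled cKO over WT 1 of 58 was lower, beside 2.54%. These counts lie near the background. Exons of Kif4 overlap Pdzd11 over 832 bases and exons of Kif20a overlap Cdc23 over 1271 bases, on the other strand. These overlaps are of GENCODE exons, whose length equals the deposited length for 54 motors but not for Kif20a. Its overlap may therefore differ in the annotation used for counting. Pdzd11 had 225 reads in Old, against 172 in Young, and Cdc23 had 64 in Old, against 81 in Young. In the authors' deposited table, for 5 of 58 motors the comparison of Old with Young has an adjusted p under 0.05, beside 12.4% of all genes, and all 5 have under 100 reads: Kif4, Kif20a, Kif2c and Kif5c higher and Kif19a lower. For cKO over WT that holds for 0 of 58, beside 3.79% of all genes. Kif2c had 10 reads in Old, against 0 in Young, at least 3.65-fold higher against a floor of 3 reads per library, and Kif19a had 0 in Old, against 23 in Young, at least 7.00-fold lower.

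**Figure D5:**
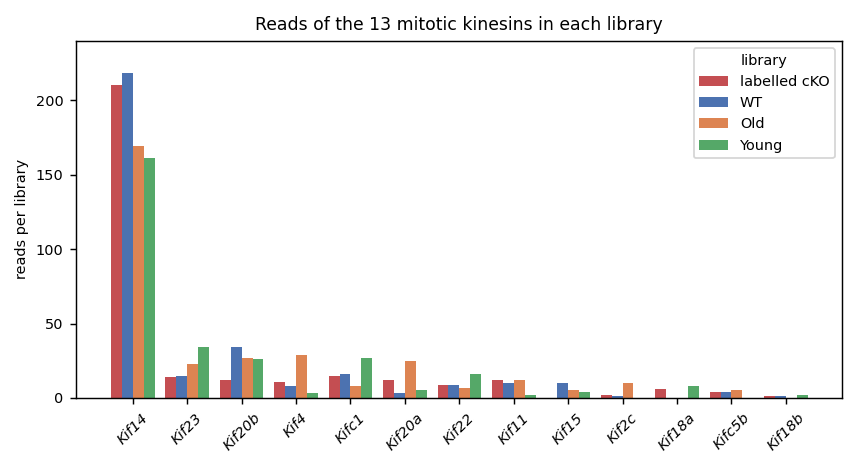
Reads of each of the 13 mitotic kinesins in the 4 libraries, as grouped bars on an axis from 0. Kif14 stands at 161 to 218 reads in every library and no other mitotic kinesin exceeds 34.

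Medians of log2 ratios, over genes with at least 20 reads summed over both libraries, describe the classes beside all genes. For the library labelled cKO over WT the median was -0.12 over 5 mitotic kinesins, -0.01 over 39 other motors and -0.01 over all genes. Old over Young gave 0.18 over 7 mitotic kinesins, 0.18 over 39 other motors and -0.06 over all genes, and WT over Young gave -0.61, 0.02 and -0.00 with 5 mitotic kinesins and 38 other motors. For WT over Young the mitotic median and the summed ratio differ in sign, since Kif14 carries the sum.

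Transcripts of dividing cells were counted beside them. The 24 dividing-cell markers summed to 1537 reads in the library labelled cKO, against 850 in WT, and to 1205 in Old, against 1050 in Young. Only 4 of the 24 markers reached 100 reads in the library labelled cKO or WT, of which 3 had a ratio above 1 and 1 below. Of the 4, 2 passed the size rule as higher, beside 2.52% of all genes. They were Ube2c, with 486 reads in the library labelled cKO and 120 in WT, and Nusap1, with 405 and 147. Mitotic kinesins had about the same sum in these 2 libraries. Whether dividing cells or late red-cell precursors supplied these reads was not tested.

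Most mitotic kinesins share a feature near their listed starts that the symbol rule did not use. The letters TTTGAA, the core of the cell cycle homology region through which many mitotic genes are repressed in cells that do not divide, were searched on both strands from 250 bases before to 50 bases after each start in the RefSeq table of build GRCm38.p6, which matched 44 of the 60 genes. They occur in 11 of 12 mitotic kinesins with an entry, the exception being Kif18a, and in 2 of 32 other motors, Dctn1 and Kif1a. Of the 27025 genes with an entry, 20.2% hold them, as do 17.9% of all 32851 promoters of that kind. The 3 stretches below set the most abundant mitotic kinesin beside 2 scarce ones, 5′ to 3′ along each gene with the match in capitals. By the deposited annotation Kif14 begins at base 136466343 and Kif4 at base 100625737. Both bases lie before the stretches shown, so the starts used lie inside these genes. Whether these stretches act as promoters was not tested. In Kif11, a spindle motor with 2 to 12 reads, and in Kif4 the match lies 19 bases before and 20 bases after the start, while in Kif14 it lies 228 bases before it. The only match of Kif2c, with at most 10 reads, lies 103 bases before the start. Kif15 and Kif22 hold a match 234 and 215 bases before it beside a nearer one. Whether the place of the match goes with abundance was not tested. A match is a description of letters and says nothing of what binds there.
Kif14 (chr1:136467598-136467897, plus strand): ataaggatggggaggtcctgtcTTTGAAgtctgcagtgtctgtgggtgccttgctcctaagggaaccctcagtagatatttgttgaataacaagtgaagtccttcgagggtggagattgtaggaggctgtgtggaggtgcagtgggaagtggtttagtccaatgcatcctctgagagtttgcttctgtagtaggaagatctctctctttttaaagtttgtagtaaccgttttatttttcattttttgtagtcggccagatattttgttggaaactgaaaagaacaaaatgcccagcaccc
Kif11 (chr19:37376132-37376431, plus strand): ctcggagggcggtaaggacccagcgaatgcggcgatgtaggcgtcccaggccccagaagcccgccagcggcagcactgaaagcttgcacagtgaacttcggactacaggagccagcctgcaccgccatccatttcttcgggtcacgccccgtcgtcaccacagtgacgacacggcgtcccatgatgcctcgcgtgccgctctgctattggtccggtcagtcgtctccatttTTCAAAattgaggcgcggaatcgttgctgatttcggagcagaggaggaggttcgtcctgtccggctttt
Kif4 (chrX:100625815-100626114, plus strand): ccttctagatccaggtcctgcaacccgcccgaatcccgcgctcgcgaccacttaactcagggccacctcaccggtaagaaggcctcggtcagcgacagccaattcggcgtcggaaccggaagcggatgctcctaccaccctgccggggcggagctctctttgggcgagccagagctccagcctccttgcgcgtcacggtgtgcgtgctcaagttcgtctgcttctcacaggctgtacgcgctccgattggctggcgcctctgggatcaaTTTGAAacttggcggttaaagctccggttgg

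Among the partners of the motors, 29 adaptors and regulators were counted. Of the 16 with at least 100 reads, 0 passed the size rule in the library labelled cKO over WT, beside 2.52% of all genes higher and 1.71% lower, and 0 of 16 in Old over Young, beside 4.26% and 4.3%, so that these counts are near the background. For the library labelled cKO over Young, 0 of 17 were higher and 1 was lower, beside 2.07% and 0.793% of all genes. That 1 was Mapk8ip3, with 78 reads against 240 in Young and 134 in WT, a ratio of 0.36 (0.27 to 0.46) over Young. Bicd2, an adaptor that joins dynein to dynactin and cargo, had 22208 reads in the library labelled cKO, against 18357 in WT, and 22041 in Old, against 17017 in Young. Its level per length was 199 RPKM in the library labelled cKO, beside 479 for Kif2a, and 189 RPKM in Old, beside 162 for Kif2a. Its ratio was 1.42 (1.39 to 1.45) for Old over Young and 1.19 (1.17 to 1.21) for the library labelled cKO over WT. Arl8b, a small GTPase that puts kinesin-1 on lysosomes, had 560 reads in the library labelled cKO, against 1079 in WT, a ratio of 0.51 (0.46 to 0.57). Kifap3, the kinesin-2 adaptor, had 54 reads in Old, against 12 in Young, and 13 in the library labelled cKO, against 14 in WT.

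Dynactin also contains an actin-like filament and a capping protein under other names, and 0 of those 6 genes passed the size rule in either comparison, beside the same shares of all genes (2.52% and 1.71%, and 4.26% and 4.3%). Capzb, a capping subunit that also caps actin outside dynactin, had 6295 reads in the library labelled cKO, against 7190 in WT, and 11558 in Old, against 7209 in Young. Its ratio was 1.76 (1.70 to 1.81) for Old over Young. Actr1a, the actin-like subunit, had 1335 reads in the library labelled cKO, against 1395 in WT, and 1984 in Old, against 1839 in Young. The dynein 2 chains Wdr34, Wdr60 and Tctex1d2 had at most 12 reads.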

How the data were processed

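RNA of pooled platelets was sequenced in 4 libraries, 1 per group. The submitters' processing notes name build mm10, DESeq2 1.20.0, featureCounts 1.5.0-p3, HISAT2 2.0.5 and CASAVA without roles or order, and the sources used here do not state whether strand was used. The authors deposited 2 tables with a signal per gene and library, whose values are whole reads times a step for each library; division by it returned whole reads to within 0.02 for at least 99.96% of values. The deposited tables also hold, for each gene, a log2 fold change and p-values before and after adjustment, per the file headers. The design assumed counts, and the recovered reads were used. A further 4 per-sample columns match no sample and were not used.

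Ratios were taken over TMM library sizes (edgeR 4.0.16 in R 4.3.3), scaled separately for each pair, and comparisons across the tables used the genes in both. Each interval is an exact 95% Clopper-Pearson interval of counting error, which covers neither amplification nor the spread between pools. No p-value was computed, since 1 library per group leaves no replicate. Against 0 reads a fold is a bound at 3 reads per library, a level between 0.162 and 0.169 RPM. Medians used a pseudocount of 0.5 read. The steps were tested on simulated data made from these libraries, and all simulated reads came back whole. The intervals held the true ratio for 95.3% of the 5981 genes with at least 100 reads in cKO over WT. For Old over Young they did so for 95.3% of 6073. The simulated reads had counting error alone (Poisson draws), which the intervals assume. This coverage therefore checks the steps and says nothing of the spread between pools.

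Genes given in full were those past the size rule, the 10 with the highest mean level per length and mitotic kinesins with at least 20 reads in a library; other genes named, and the comparisons of the library labelled cKO with Young and of Old with WT, were chosen with their values in view. The members and lists were chosen with earlier results of these data known. Sequences are from GENCODE vM21 transcripts and, for promoters, RefSeq.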

Additional observations from a re-analysis of the deposited data

How the results depend on the processing

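No paired analysis was possible because each group has 1 library, and no library could be left out for the same reason. Scaling to total reads in place of TMM shifts every log2 ratio by 0.05 for the library labelled cKO over WT, by -0.16 for Old over Young and by -0.11 for WT over Young. It gave 1 motor higher in the library labelled cKO over WT, Kif2a, as did Young in place of WT (1). With a minimum of 20 reads, 3 motors (Kif4, Kif20a, Kif5c) were higher and 1 (Kif19a) lower in Old over Young, beside 5.53% and 5.44% of all genes. With no minimum 4 were higher, adding Kif2c, and 1 lower, beside 5.49% and 5.25%. In the library labelled cKO over WT 1 (Kif15) was then lower, beside 2.54%. A bound of 1.5-fold gave 3 higher and 2 lower in the library labelled cKO over WT, 2 higher in Old over Young and 1 higher in WT over Young. Intervals that leave out 1 gave 10 higher and 11 lower, 12 and 5, and 11 and 8 in the same order. Median-of-ratios scaling and a 4-fold bound left the counts at 0.

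The summed mitotic ratio became 1.96 in the library labelled cKO over WT and 0.99 in Old over Young with Kif2a and Kif24 added. Kif2a outnumbers the rest. With the other wild-type library as control, the summed mitotic ratio without these additions was 1.17 and 0.97. Without Kif14 it was 0.96 for WT over Young. The mitotic median for WT over Young at 100 summed reads was 0.56, from Kif14 alone. Without Kif2a the summed ratio of all motors was 0.89 for the library labelled cKO over WT, 1.18 for Old over Young and 1.11 for WT over Young. With the other wild-type library as control, the sum without Kif2a was 1.01 for the library labelled cKO and 1.06 for Old. With Kif2a kept, it was 1.83 and 0.88. With Young in place of WT the ratio of the library labelled cKO turned for Dynlrb1 (1.03) and Kif21b (0.83), and with WT in place of Young that of Old turned for Dynlrb1 (0.88); the cause was not tested. All mitotic kinesins but Kif14 had at most 34 reads and the dynein 2 chains at most 47, so their single ratios are limited by depth.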

Other observations

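Axonemal dynein heavy chains, which drive the beat of cilia and flagella and are no members of the set above, were not all silent in these libraries. Dnah17 had 1274 reads in the library labelled cKO, against 723 in WT, and 522 in Old, against 694 in Young, with a ratio of 1.73 (1.58 to 1.90) for the library labelled cKO over WT. Its level per length was 4.46 RPKM in the library labelled cKO, against 2.49 in WT, beside 6.24 and 5.13 RPKM for the cytoplasmic heavy chain Dync1h1 in the same libraries. Dnah10 had 219 reads in Old, against 122 in Young, and 62 in the library labelled cKO, against 54 in WT. Another 6 listed Dnah genes had at most 89 reads, and the dynein 2 heavy chain Dync2h1 had at most 47.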
